A study of Mus musculus with 30 samples.

Results

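The mouse genome carries a run of Trim genes on chromosome 7 that respond to type I interferon (IFN-I). Their RNA was measured here in B16 melanoma tumors that secrete IFNα4, IFNα9 or neither. The 10 genes examined were Trim5, Trim12a, Trim12c, Trim21, Trim30a, Trim30b, Trim30c, Trim30d, Trim34a and Trim34b. They were chosen by symbol through their Ensembl identifiers, from 39676 genes in the count table. The rule uses no measured value, though the genes were proposed with earlier results of these data known. All 10 averaged 10 counts or more over the tumors and so entered the tests, which covered 15926 genes.

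Bulk RNA-seq was done on 30 whole tumors, 10 of each of 3 types, taken on day 8 after subcutaneous injection of B16-F10 melanoma cells into female C57BL/6 mice, which the study's methods give as typically 8 to 12 weeks old. B16-GFP cells carried a retroviral vector with GFP alone, B16-IFNA4 cells a vector with murine IFNα4 and GFP, and B16-IFNA9 cells one with murine IFNα9 and GFP, driven by the viral LTR promoter. All 3 lines also carried herpes simplex virus glycoprotein B with CFP, and firefly luciferase with puromycin resistance. Cells were sorted for GFP and CFP and selected with puromycin. The labels name no second line for a type, so the interferon and the line cannot be told apart, and the interferon came from the tumor cells themselves. Levels are given as CPM, the count of a gene relative to the library size, scaled by the trimmed mean of M-values (TMM) over the tested genes.

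Most TRIM proteins have a RING domain, which makes many of them E3 ubiquitin ligases, followed by B-box and coiled-coil domains. Many of them, though not all in this region, end in a PRY-SPRY domain that binds targets. IFN-I binds IFNAR1 and IFNAR2 and raises interferon-stimulated genes (ISGs), many of which carry interferon-stimulated response elements in their promoters. TRIM21 is a cytosolic receptor for antibody that sends antibody-coated particles to the proteasome. TRIM30a restrains Toll-like receptor signaling to NF-κB through TAB2 and TAB3. Trim5, Trim12a and Trim12c are the mouse relatives of primate TRIM5, a restriction factor of retroviral capsids, and the Trim34 genes belong to the same antiviral group.

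Positions are those of GENCODE M21 on GRCm38, on chromosome 7. Trim21 (ENSMUSG00000030966.13) lies apart at 102557921-102565486 on the minus strand, 1679 kb before the others. The remaining 9 genes span 263 kb. On the plus strand are Trim34a (ENSMUSG00000056144.14, 104244457-104262234) and Trim34b (ENSMUSG00000090215.9, 104329471-104336909). On the minus strand are Trim5 (ENSMUSG00000060441.15, 104263386-104288094), Trim12a (ENSMUSG00000066258.13, 104299894-104315466) and Trim12c (ENSMUSG00000057143.15, 104338754-104353362). They are followed by Trim30b (ENSMUSG00000052749.9, 104355382-104369884), Trim30c (ENSMUSG00000078616.2, 104382065-104400837), Trim30a (ENSMUSG00000030921.17, 104409025-104465193) and Trim30d (ENSMUSG00000057596.13, 104470014-104507849).

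**Figure D1:**
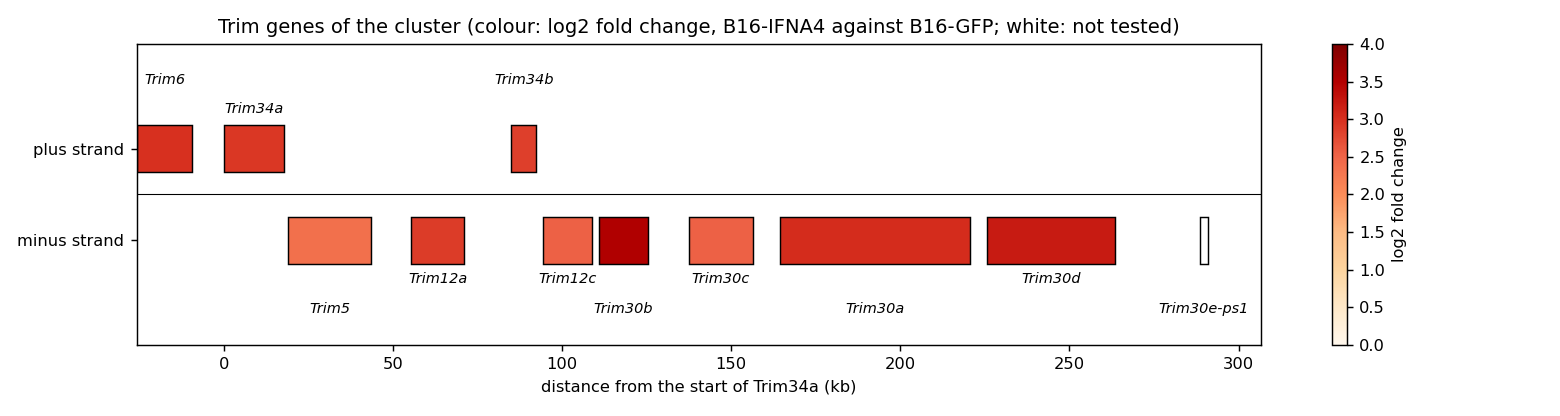
Trim genes of the cluster by distance from the start of Trim34a in kb, with genes of the plus strand above the line and those of the minus strand below. Color gives the log2 fold change of B16-IFNA4 against B16-GFP tumors, which ran from 2.37 for Trim5 to 3.53 for Trim30b among the members drawn, and Trim30e-ps1 in white was not tested. Trim21 lies outside the map.

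Many of these genes are close copies of each other, so that a short read may align to several of them. Over their aligned coding bases, Trim34a and Trim34b were 98.2% identical, Trim5 and Trim12a 97.1%, Trim5 and Trim12c 96.6%, and Trim30a and Trim30d 90.2%. Reads were 50 bases long. Of the distinct 50-base stretches in its transcripts, Trim34a shared 59.7% with another gene and 39.8% with other members, and Trim34b shared 56.8%. The share was 36.6% for Trim5, 33.7% for Trim12c and 10.5% for Trim12a. It was 7.49% for Trim30d, 5.98% for Trim30a, 1.48% for Trim30b, 0.66% for Trim30c and 0.216% for Trim21. The counts of Trim34a, Trim34b, Trim5, Trim12c and Trim12a are therefore uncertain relative to their copies, since how reads with several alignments were counted is not given in the sources used here. An antisense gene, Gm47248, covers 609 bases of Trim34a exons, and the strand setting of the counting is not given either.

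The promoters were searched for the letters of an interferon-stimulated response element (GAAA, any 2 bases, then GAAA) and of a gamma-activated site (TTC, any 3 bases, then GAA), on both strands. RefSeq promoter windows (GRCm38.p6, 250 bases before to 50 after a start) were at hand for all 10 members, 11 windows in all, since Trim30a had 2. The first set of letters was found in 7 of the 10 members, against 3.99% of 27025 genes, and 2 overlapping matches stood in Trim21. Trim34b, Trim30b and Trim30c had none. A gamma-activated site was found in 1 member, Trim30c, against 9.55% of genes. The window of Trim30b lies within the gene, far from the GENCODE start, and does not cover that start. A match is a description of the letters and not evidence of binding. The stretches below are shown because they set the copies side by side, written 5′ to 3′ on the strand of the gene, with the matched letters in capitals.

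Trim30a, chr7:104465205-104465254, minus strand: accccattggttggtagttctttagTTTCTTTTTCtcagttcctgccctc
Trim30d, chr7:104507866-104507915, minus strand: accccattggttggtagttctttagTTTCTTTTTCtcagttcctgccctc
Trim5, chr7:104288131-104288180, minus strand: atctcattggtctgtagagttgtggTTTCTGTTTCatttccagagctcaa
Trim12c, chr7:104353354-104353403, minus strand: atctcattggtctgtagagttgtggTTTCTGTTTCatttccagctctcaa
Trim12a, chr7:104315466-104315495, minus strand: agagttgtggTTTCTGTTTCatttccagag
Trim34a, chr7:104244457-104244486, plus strand: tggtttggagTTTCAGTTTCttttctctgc
Trim21, chr7:102565447-102565476, minus strand: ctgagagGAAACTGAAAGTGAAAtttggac

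The 50 bases shown for Trim30a and Trim30d differed at 0 positions, those of Trim5 and Trim12c at 2, and the 30 bases of Trim12a did not differ from the matching bases of Trim5. Trim34b and Trim30c lack the response element letters in their windows, and the 50 bases that begin 80 before their RefSeq start are shown. These stretches do not lie at the same positions as those of their copies above. The stretch of Trim34a begins at its start, so the letters cannot be compared base by base. The capitals in Trim30c mark its gamma-activated site, and Trim34b has no match.

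Trim34b, chr7:104329391-104329440, plus strand: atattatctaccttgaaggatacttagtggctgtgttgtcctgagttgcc
Trim30c, chr7:104400809-104400858, minus strand: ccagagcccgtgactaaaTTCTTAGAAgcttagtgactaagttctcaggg

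Total counts per tumor ran from 14598517 to 19788383. Ifna4 had 81 to 188 counts in B16-IFNA4 tumors and 0 in the other types, and Ifna9 had 55 to 148 counts in B16-IFNA9 tumors and 0 in the others, as their labels state. One library stood apart. B16-GFP tumor 7 had the highest sum of the 3 melanocyte genes measured (22850 CPM, against a median of 8981 in its type) and the lowest sum of the 5 leukocyte genes (150 CPM, against a median of 440). Of 7 melanocyte genes listed, 4 were not analysed here. The summed leukocyte genes ran from 150 to 575 CPM in B16-GFP, from 868 to 1793 in B16-IFNA4 and from 608 to 1236 in B16-IFNA9 tumors. No listed marker of a cell type was at 0 in every tumor of a type.

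Trim30a was the most abundant member per length in every type. Per kb of exon, its mean level was 17.5 ± 6.23 CPM in B16-GFP, 144 ± 28.4 in B16-IFNA4 and 117 ± 19.1 in B16-IFNA9 tumors (SD, n = 10 each). Trim30d came next in all 3 types, at 7.16, 66.6 and 50.5 CPM per kb. Trim30b was the lowest in all 3, at 0.55, 6.41 and 3.03 CPM per kb, although its annotated exons, 7527 bases, are much longer than its longest coding sequence of 609 bases. Of the 9 pairs of members adjacent in the order, the first was higher in all 10 tumors for 5 pairs in B16-GFP and for 7 pairs in each interferon type. Others did not keep their order, as in B16-GFP tumors, where Trim12c exceeded Trim21 in 5 of 10 tumors. In the interferon tumors, the ranges of adjacent members failed to overlap for Trim30a over Trim30d in both types, for Trim30d over Trim34a in B16-IFNA4, and for Trim5 over Trim30c in B16-IFNA9 tumors.

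All 10 members were higher in B16-IFNA4 than in B16-GFP tumors in edgeR's quasi-likelihood test. Of all genes tested, 31.3% were called higher in this comparison. The members' log2 fold changes ran from 2.08 to 3.53 with a median of 2.86, beside a median of 0.0092 over all genes tested, and the largest adjusted p was 4.19e-10. For all 10, every B16-IFNA4 tumor lay above every B16-GFP tumor, as for 8.5% of genes. In B16-IFNA9 tumors, all 10 were again higher than in B16-GFP tumors (background 26.9%), with log2 fold changes from 1.63 to 2.82, a median of 2.49 beside -0.0031 over all genes, and a largest adjusted p of 2.17e-06. The 2 types did not overlap for 9 of the 10 members (background 4.44%). Both comparisons use the same B16-GFP tumors. Scaled by library totals in place of TMM, the calls over all genes of B16-IFNA9 against B16-GFP split into 5052 higher and 3608 lower, in place of 4281 and 4595.

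**Figure D2:**
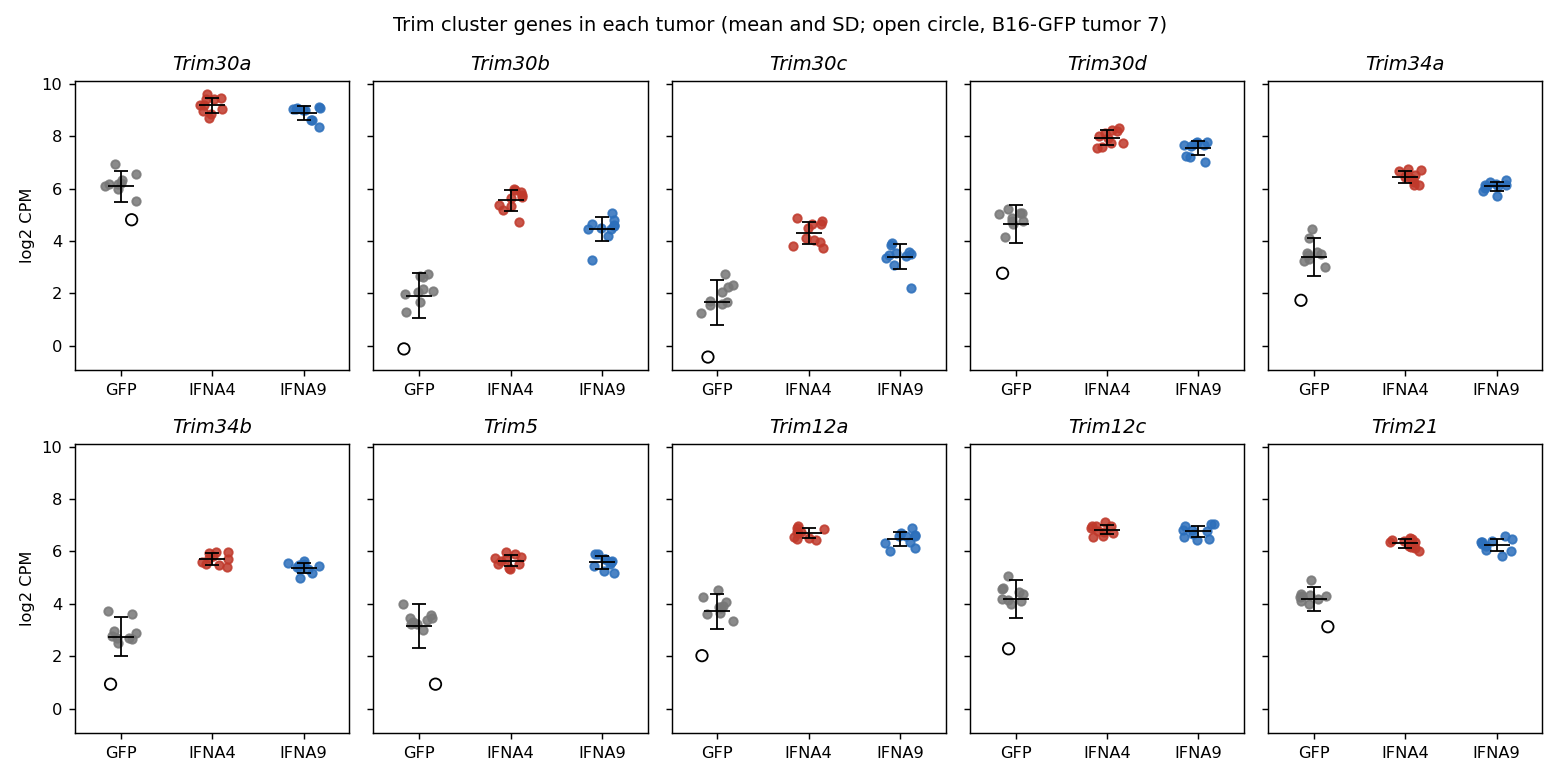
Log2 CPM of each member in each of the 30 tumors, with 1 point per tumor and the mean and SD of the type in black. The open circle is B16-GFP tumor 7, the lowest B16-GFP tumor in all 10 panels. Every B16-IFNA4 point lies above every B16-GFP point of the same gene.

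Among the Trim30 genes, Trim30a ran from 28.0 through a median of 72.0 to 123 CPM in B16-GFP, from 417 through 585 to 778 in B16-IFNA4 and from 328 through 520 to 547 in B16-IFNA9 tumors. Neither interferon type overlapped with B16-GFP. Its log2 fold change against B16-GFP was 3.04 (SE 0.18, adjusted p = 8.84e-15) with IFNα4 and 2.74 (SE 0.18, adjusted p = 2.02e-13) with IFNα9. Trim30d, the near-copy with the same promoter stretch, ran from 6.70 through 28.0 to 37.6 CPM in B16-GFP, from 187 through 250 to 320 in B16-IFNA4 and from 130 through 204 to 222 in B16-IFNA9 tumors. Its log2 fold changes were 3.22 and 2.82.

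Trim30b showed the largest rise of all members with IFNα4. It ran from 0.80 through 4.12 to 6.54 CPM in B16-GFP, from 26.6 through 50.6 to 62.5 in B16-IFNA4 and from 9.68 through 23.0 to 33.5 in B16-IFNA9 tumors. Relative to B16-GFP, its log2 fold change was 3.53 (SE 0.24, adjusted p = 2.40e-13) with IFNα4 and 2.45 (SE 0.23, adjusted p = 7.06e-10) with IFNα9. Trim30c had the lowest counts, 7 in B16-GFP tumor 7, and the smallest rise with IFNα9. It ran from 0.63 through 3.10 to 6.54 CPM in B16-GFP, from 13.3 through 19.9 to 29.1 in B16-IFNA4 and from 4.52 through 11.2 to 15.2 in B16-IFNA9 tumors. Of the 10 B16-IFNA9 tumors, 9 lay above all B16-GFP tumors, and tumor 5 lay within their range. Its log2 fold changes were 2.54 (SE 0.25) and 1.63 (SE 0.24).

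Both Trim34 genes rose with both interferons. Trim34a ran from 3.22 through 11.1 to 21.7 CPM in B16-GFP, from 70.4 through 88.4 to 108 in B16-IFNA4 and from 52.2 through 68.9 to 79.4 in B16-IFNA9 tumors. Trim34b ran from 1.79 through 6.56 to 13.0 CPM, from 41.9 through 53.1 to 63.5 and from 31.5 through 42.4 to 49.5 in the same order. The log2 fold changes with IFNα4 were 2.93 and 2.85, and with IFNα9 2.56 and 2.51. Given the sequence they share, these are values of the pair as much as of either gene.

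The relatives of primate TRIM5 rose with both interferons. Trim12a ran from 3.93 through 14.4 to 22.8 CPM in B16-GFP, from 86.2 through 106 to 124 in B16-IFNA4 and from 64.1 through 95.7 to 117 in B16-IFNA9 tumors, with log2 fold changes of 2.88 and 2.68. Trim12c ran from 4.73 through 19.3 to 32.8 CPM, from 94.2 through 114 to 139 and from 85.5 through 111 to 131, with log2 fold changes of 2.54 and 2.48. Trim5 ran from 1.79 through 9.93 to 15.7 CPM, from 39.8 through 50.1 to 63.0 and from 36.2 through 48.9 to 59.7, with log2 fold changes of 2.37 and 2.31. In all 3 genes, both interferon types lay wholly above B16-GFP.

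Trim21, the antibody receptor, had the smallest log2 fold change with IFNα4, 2.08 (SE 0.13, adjusted p = 3.03e-14), and reached 2.03 (SE 0.13, adjusted p = 1.74e-13) with IFNα9. It ran from 8.57 through 19.1 to 29.8 CPM in B16-GFP, from 64.8 through 81.8 to 89.8 in B16-IFNA4 and from 56.1 through 79.1 to 95.8 in B16-IFNA9 tumors. It varied least within a type among the members in B16-GFP and B16-IFNA4 tumors, with a coefficient of variation of 27.8% and 10.7%.

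Most leukocyte markers listed moved with these differences. Ptprc, which encodes the pan-leukocyte marker CD45, ran from 19.6 to 118 CPM in B16-GFP, from 292 to 768 in B16-IFNA4 and from 161 to 475 in B16-IFNA9 tumors, with log2 fold changes against B16-GFP of 2.65 and 2.14. All 5 listed leukocyte genes rose in both comparisons, with medians of 1.40 and 1.01. All 4 listed NK cell genes rose too, with medians of 3.59 and 3.01, as did 5 and 4 of the 5 T cell genes, 4 and 4 of the 5 macrophage and monocyte genes analysed here (of 6 listed) and 3 and 2 of the 3 plasmacytoid dendritic cell genes, with IFNα4 and IFNα9 respectively, beside 31.3% and 26.9% of all genes. Of 3 neutrophil genes, Csf3r rose with both interferons while S100a8 and S100a9 fell with both, and the list's medians were -0.72 and -1.14. The 3 B cell genes were too low to test and summed to at most 2.20 CPM in any tumor. The 3 measured melanocyte genes fell, with medians of -1.24 and -0.97. Of 3 endothelial genes, 1 rose and 2 fell with IFNα4, and 2 fell with IFNα9 (medians -0.43 and -0.99). The 2 skeletal muscle genes were not called with IFNα4 and fell with IFNα9 (-0.06 and -1.09). Of 2 keratinocyte genes 1 and 0 rose (0.54 and 0.28), and of 2 fibroblast genes analysed here (of 3 listed) 0 and 1 rose (0.22 and 0.29). Of all genes, 34.1% and 28.9% were called lower. The part of these markers in the members' differences was not tested. In whole tumors, more or fewer cells of a type cannot be told apart from more or less RNA per cell, for markers that rose as for those that fell. Without B16-GFP tumor 7, all 10 members remained called in both comparisons, with log2 fold changes from 2.01 to 3.43 and from 1.52 to 2.71.

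The direct comparison of B16-IFNA9 with B16-IFNA4 tumors asks whether these genes differ in level between the 2 interferon types. All 10 members had a lower mean fitted level with IFNα9, and 2 of 10, Trim30b and Trim30c, were called lower, beside 7.25% of all genes tested. The log2 difference was -1.08 (95% confidence interval -1.52 to -0.64, adjusted p = 0.000734) for Trim30b and -0.91 (-1.38 to -0.44, adjusted p = 0.00584) for Trim30c. In each gene, 8 of the 10 B16-IFNA9 tumors lay below all B16-IFNA4 tumors, though the types overlapped, as they did for all 10 members (0.741% of all genes lay wholly lower).

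**Figure D3:**
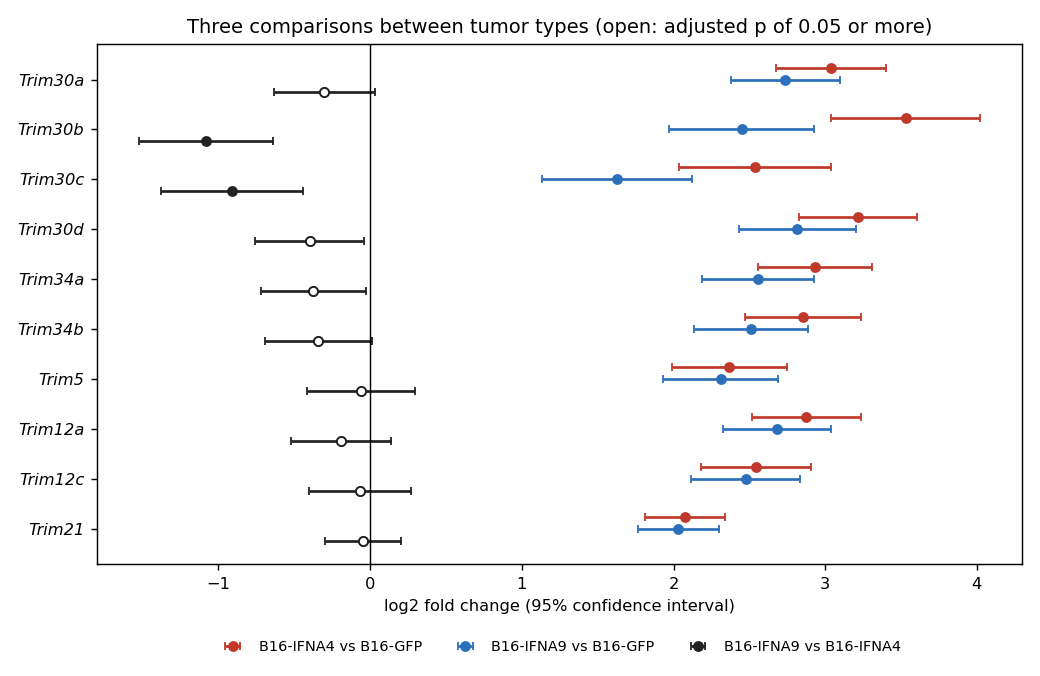
Log2 fold change of each member with its 95% confidence interval in the 3 comparisons, from the fit of all 30 tumors. Filled points have an adjusted p under 0.05, and open points do not. Against B16-GFP all points lie between 1.63 and 3.53, and in B16-IFNA9 against B16-IFNA4 tumors the filled points are those of Trim30b (-1.08) and Trim30c (-0.91).

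The other 8 members did not pass the threshold. Trim30d differed by -0.40 (-0.76 to -0.04, adjusted p = 0.116), Trim34a by -0.38 (-0.72 to -0.03, adjusted p = 0.127), Trim34b by -0.34 (-0.69 to 0.01) and Trim30a by -0.30 (-0.64 to 0.03). The values nearest 0 were those of Trim21 (-0.05, -0.30 to 0.21), Trim5 (-0.06, -0.41 to 0.30), Trim12c (-0.07, -0.40 to 0.27) and Trim12a (-0.19, -0.52 to 0.14). Ptprc itself differed by -0.52 (adjusted p = 0.105). Markers of several cell types were called lower in the same comparison, namely 1 of 5 leukocyte genes (list median -0.51), 1 of 4 NK cell genes (-0.50), 2 of 5 macrophage and monocyte genes (-0.09), 3 of 3 plasmacytoid dendritic cell genes (-0.71), 2 of 3 neutrophil genes (-0.78), 3 of 3 endothelial genes (-0.67) and 1 of 2 skeletal muscle genes (-1.03). The T cell, fibroblast and keratinocyte lists, without a call at the adjusted threshold, had medians of -0.40, 0.07 and -0.26, and 2 of 3 melanocyte genes were called higher (0.41). Their part in the differences of Trim30b and Trim30c was not tested. A fit of only the 20 tumors compared called 5 members lower, adding Trim30d (adjusted p = 0.0125), Trim34a (0.00259) and Trim34b (0.00672), and so did the fit without B16-GFP tumor 7, with adjusted p of 0.0149, 0.0262 and 0.0404 in edgeR. The share of all genes called lower rose as well, to 12.4% with the 20 tumors and 11% without tumor 7. With the 4 Trim30 genes summed before the fit, the sum differed by -0.37 (SE 0.17, adjusted p = 0.131).

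Ratios of counts within a tumor do not depend on the scaling of libraries. Between types they were tested by permutation (100000 resamples, two-sided), as 8 ratios in 3 comparisons with p adjusted over the 24 tests, an analysis chosen after the data were seen. In B16-IFNA9 tumors, the Trim30b count was 4.70% ± 0.91 (SD, n = 10) of the Trim30a count, in B16-IFNA4 tumors 8.10% ± 1.05 and in B16-GFP tumors 5.57% ± 1.51. All 10 B16-IFNA9 tumors lay below all B16-IFNA4 tumors. The log2 ratio differed by -0.80 (SE 0.11, adjusted p = 0.00024, from the smallest p that the resamples can give). Against B16-GFP, the ratio was higher with IFNα4 by 0.58 (adjusted p = 0.00126), and with IFNα9 it differed by -0.22 (adjusted p = 0.237), a value that passed the threshold without B16-GFP tumor 7 (-0.32, adjusted p = 0.0434).

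Trim30c stood to Trim30a in another order. Its count was 4.72% ± 1.53 of the Trim30a count in B16-GFP, 3.41% ± 0.46 in B16-IFNA4 and 2.25% ± 0.49 in B16-IFNA9 tumors. The log2 ratio was lower in B16-IFNA9 than in B16-IFNA4 tumors by a difference of -0.62 (SE 0.13, adjusted p = 0.00048), with 9 of 10 tumors below all B16-IFNA4 tumors. It was lower than in B16-GFP tumors with IFNα9 (-1.03, adjusted p = 0.00048) and with IFNα4 (-0.41, adjusted p = 0.0416). The last of these lost its call when B16-GFP tumor 2, 4, 6, 8 or 10 or B16-IFNA4 tumor 2, 3, 4, 6, 7, 8 or 9 was left out, with adjusted p up to 0.0843.

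**Figure D4:**
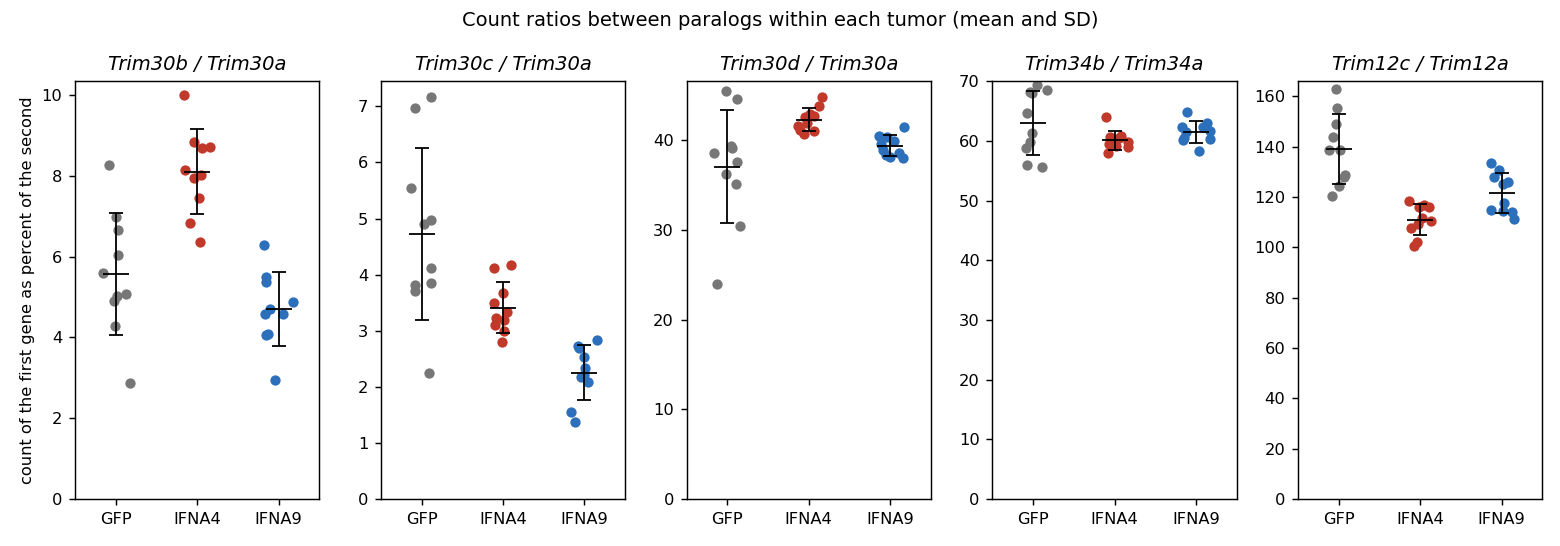
Count of 1 gene as a percent of the count of its copy within the same tumor, with 1 point per tumor and the mean and SD of the type. The Trim30b to Trim30a ratio was 8.10% in B16-IFNA4 and 4.70% in B16-IFNA9 tumors, without overlap, while the Trim34b to Trim34a ratio lay near 60% in all types.

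Differences between the interferon types were smaller among the remaining copies. Trim30d was 42.3% ± 1.31 of Trim30a in B16-IFNA4 and 39.4% ± 1.16 in B16-IFNA9 tumors, a log2 difference of -0.10 (SE 0.02, adjusted p = 0.00048). In B16-GFP tumors it was 37.1% ± 6.34. The log2 ratio was higher than there with IFNα4 (0.21, adjusted p = 0.0161), and with IFNα9 it differed by 0.11 (adjusted p = 0.287). Trim34b was 60.1% ± 1.64 and 61.5% ± 1.82 of Trim34a, a difference that did not pass the threshold (0.03, SE 0.02, adjusted p = 0.131) but did so without B16-IFNA4 tumor 6 (0.04, adjusted p = 0.022) or B16-IFNA9 tumor 3 (0.04, adjusted p = 0.0458). Trim12c was 139% ± 13.9 of Trim12a in B16-GFP, 111% ± 6.18 in B16-IFNA4 and 122% ± 7.98 in B16-IFNA9 tumors, lower with either interferon (adjusted p = 0.00024 and 0.0068) and higher with IFNα9 than with IFNα4 (0.13, SE 0.04, adjusted p = 0.0068). Ratios within the Trim34 pair and between Trim12a and Trim12c depend on how reads from shared sequence were counted, which is not known here. Between the groups of copies, the Trim30 sum relative to the sum of Trim5, Trim12a and Trim12c was lower in B16-IFNA9 than in B16-IFNA4 tumors by a log2 difference of -0.25 (adjusted p = 0.00368), and the Trim34 sum relative to the same sum by -0.24 (adjusted p = 0.00064). The Trim30 sum relative to the Trim34 sum differed by -0.01 (SE 0.07, adjusted p = 0.872). Against B16-GFP tumors, the Trim30 sum relative to the Trim5 and Trim12 sum was higher with IFNα4 (0.42, adjusted p = 0.000686), as was the Trim34 sum (0.29, adjusted p = 0.00432). With IFNα9 these differed by 0.17 (adjusted p = 0.128) and 0.06 (adjusted p = 0.55). The value of 0.17 became 0.23 and passed without B16-GFP tumor 7 (adjusted p = 0.0245).

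Within a type, the members went up and down together. After subtraction of the type means, Pearson's r between pairs of members over 30 tumors ran from 0.77 to 0.99 over 45 pairs, with a median of 0.90. Without B16-GFP tumor 7 the median was 0.78 and the lowest 0.54. The points share library and scaling, and copies with common sequence may also share reads. The highest values were those of such copies, Trim34a with Trim34b (0.99) and Trim5 with Trim12c (0.97). Pairs of other genes were not examined as a background. The tumor with the least Ptprc in each type was also the lowest in most members: B16-GFP tumor 7 in all 10, B16-IFNA4 tumor 8 in 8 and B16-IFNA9 tumor 5 in 8. B16-IFNA4 tumor 8 also had the least Ifna4 of its type, 4.67 CPM, the next lowest being 6.26 CPM. In B16-IFNA9 tumors the least Ifna9 was in tumor 3. The part of Ptprc or of the transgene in these low values was not tested.

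Each member was then set against Ptprc within each type and against the transgene in the tumors that express it, as 50 relations adjusted together by permutation tests with 100000 resamples. The share of all tested genes that would pass against Ptprc was not computed, so the counts below do not set the members apart from other genes. In B16-IFNA4 tumors, r with Ptprc ran from 0.84 to 0.95 and Spearman's rho from 0.78 to 0.98, with all 10 members under an adjusted p of 0.05 by either measure (largest 0.00674 for r and 0.0355 for rho). Without the 2 tumors farthest from the median of Ptprc, r ran from 0.83 to 0.93. In B16-IFNA9 tumors, r ran from 0.73 to 0.90 and passed for all 10 members (largest adjusted p = 0.0313), rho ran from 0.41 to 0.89 and passed for 4, and r without 2 tumors ran from 0.37 to 0.85. Without tumor 5 only 3 members still passed, and without tumor 1 only 5, so that the relation rests in part on those tumors. In B16-GFP tumors, r ran from 0.83 to 0.98 and passed for all 10 (largest adjusted p = 0.0263), rho ran from 0.41 to 0.95 and passed for 2, Trim30a and Trim30d. There r fell to between 0.09 and 0.80 without tumors 2 and 7, and without tumor 7 alone only 2 members still passed (7 without tumor 5), so that the relation rests on tumor 7.

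**Figure D5:**
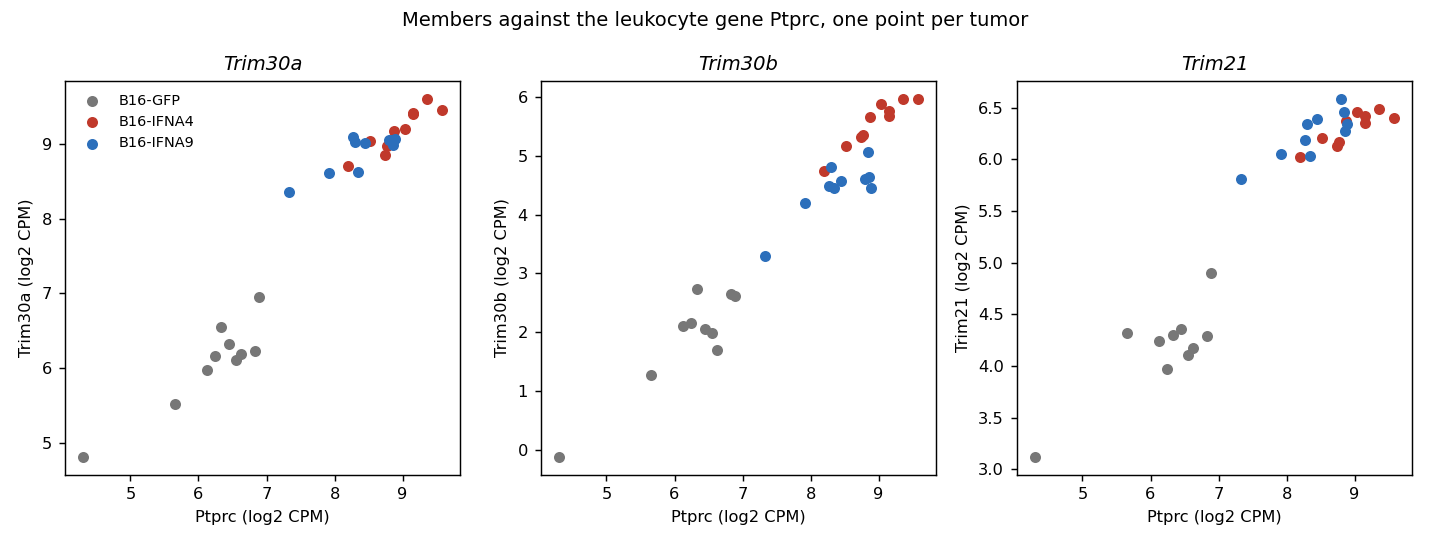
Log2 CPM of Trim30a, Trim30b and Trim21 against log2 CPM of Ptprc, with 1 point per tumor colored by type. Within B16-IFNA4 tumors r was 0.91 for Trim30a, 0.95 for Trim30b and 0.85 for Trim21, and the B16-GFP point at the lower left is tumor 7.

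Against the transgene, 0 of 20 relations passed by permutation, and 0 had an unadjusted p under 0.05. Against Ifna4 in B16-IFNA4 tumors r ran from 0.27 to 0.50 and rho from -0.09 to 0.37, with a smallest adjusted p of 0.219 for r and 0.427 for rho. Against Ifna9 in B16-IFNA9 tumors r ran from -0.51 to 0.03 and rho from -0.61 to 0.14, with a smallest adjusted p of 0.217 and 0.16. Without the 2 tumors farthest from the median, r ran from -0.35 to 0.06 and from -0.22 to 0.12. At 10 tumors a type, and at most 188 counts of a transgene, such a relation may not have been detectable.

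The genes whose log2 CPM, with type means removed, was most like the mean of the 10 members over 30 tumors were Slfn8 (r = 0.97), Ifi203 (0.97), Sp100 (0.96), Ifi213 (0.95) and C130026I21Rik (0.95). Without B16-GFP tumor 7 the values were 0.94, 0.92, 0.92, 0.93 and 0.88. Slfn8, Ifi203, Sp100 and Ifi213 belong to families of interferon-responsive genes.

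Other Trim genes were examined beside the members. Of 54 other genes with a Trim symbol and number, 37 were tested, and in B16-IFNA4 against B16-GFP tumors 18 rose and 7 fell (31.3% and 34.1% of all genes), with a median log2 fold change of 0.28. The largest changes were those of Trim6 (2.99), of Trim14 (2.25), an adaptor of mitochondrial antiviral signaling, and of Trim71 (-2.10), a regulator of developmental timing. In B16-IFNA9 against B16-GFP tumors 15 rose and 8 fell (26.9% and 28.9% of all genes), with a median of 0.18. All 5 listed interferon-inducible genes of the family elsewhere in the genome (Trim14, Trim25, Trim26, Trim56 and Pml) rose in both comparisons, with medians of 1.53 and 1.32. The fold change of Trim14 lay above that of the member with the smallest change in each comparison, a difference that was not tested (2.25 beside 2.08 for Trim21 with IFNα4, and 1.69 beside 1.63 for Trim30c with IFNα9). Trim26 changed least with IFNα4, by 1.12. In B16-IFNA9 against B16-IFNA4 tumors, 2 of these 5, Trim14 (-0.55) and Trim25 (-0.69), were lower, beside 7.25% of all genes.

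Genes around the members were called in both directions. From 100 kb before the first to 100 kb after the last member the table lists 158 further genes, of which 119 have olfactory receptor symbols, 97 had no count in any tumor and 13 were tested. In B16-IFNA4 against B16-GFP tumors 6 rose and 5 fell, beside 31.3% and 34.1% of all genes, with a median of 0.02. Trim6, which lies just before Trim34a and is not a member, had 0.72 ± 0.47 CPM in B16-GFP, 5.85 ± 1.14 in B16-IFNA4 and 2.33 ± 0.63 in B16-IFNA9 tumors (SD, n = 10). It rose with both interferons (2.99 and 1.67) and was lower with IFNα9 than with IFNα4 (-1.32, SE 0.28, adjusted p = 0.00128). Trim68, beside Trim21, changed by 0.63 and 0.54, and its difference between the interferon types was -0.09 (adjusted p = 0.668). The pseudogene Trim30e-ps1 had at most 36 counts and was not tested. Gm5339 had the smallest change of the neighbors tested, 0.02.

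Among genes of IFN-I signaling, Usp18, which restrains signaling at IFNAR2, rose with IFNα4 (3.72, adjusted p = 2.61e-16), and the receptor gene Ifnar1 differed by 0.12 (adjusted p = 0.22). In B16-IFNA9 against B16-IFNA4 tumors, Irf7 (-0.96) and Usp18 (-0.74) were lower and Irf1 was higher (0.85, beside 10.5% of all genes called higher). Of 8 listed partners of TRIM proteins, 6 were analysed here. In B16-IFNA4 against B16-GFP tumors, Tab2, a target of TRIM30a, rose (0.37), Ube2v2 (-0.52) and Vcp (-0.36) fell, and Tab3 changed least (-0.01, adjusted p = 0.931). Between the interferon types the log2 differences of the 6 ran from -0.08 to 0.16, the largest being that of Tab3 (adjusted p = 0.304).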

How the data were processed

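Total RNA of 30 whole tumors was sequenced from stranded mRNA libraries (50-base single-end reads). The submitters' notes name FastQC 0.11.3 and HISAT2 2.0.4 and the build mm10, whereas the study's methods name mm11. The authors counted reads per gene with summarizeOverlaps and deposited these counts as whole numbers without normalization. The overlap mode, the strand setting and the handling of reads with several alignments are not given in the sources used here. Of 39676 identifiers, 39495 were found in GENCODE M21 (GRCm38), which gave symbols, positions and exon lengths. Its positions are not those of the authors' alignment.

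The members and all gene lists were chosen with earlier results of these data known. Genes averaging 10 or more counts over all tumors were kept (15926), scaled by TMM and tested with edgeR 4.0.16 in R 4.3.3 by the quasi-likelihood test in one fit of 30 tumors. P-values were adjusted by Benjamini-Hochberg over all genes tested, with a threshold of 0.05. The standard error was the log2 fold change divided by the square root of F. Log2 CPM took a prior count of 2. Within-type correlations and count ratios were computed with Python 3.11.15 and scipy 1.17.1. Permutation tests were two-sided. Within a type, no pair of libraries was identical, and the chi-square of counts per gene was at least 14.1. Such values cannot show that tumors came from different mice. Each tumor was taken as 1 replicate because the labels call the tumors biological replicates. The labels do not tie the tumors to mice or batches.

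Genes named beside the members were, in each fixed list, those with the largest and the smallest change of B16-IFNA4 against B16-GFP, the 3 largest changes among other Trim genes, every Trim gene in the neighborhood, and the 5 genes most like the members. The other genes given by name, among them Trim25, Irf7, Irf1, Tab2 and Vcp, were chosen after their values were seen. Counts over the list of signaling genes are left out of the text. Simulated counts with known changes were used to test the model. Alternatives were DESeq2 1.42.0, other scalings and filters, fewer tumors, a replicate block, summed paralogs and each tumor left out in turn.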

Additional observations from a re-analysis of the deposited data

Results flagged for a closer look

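Within each type of 10 tumors, 54 sets of values (10 members and 8 ratios in 3 types) were examined for a highest or lowest tumor whose gap to the next exceeded Dixon's limit for 10 samples. Chance flags about 1 in 20 independent sets. Here 13 were found, 9 of them in B16-GFP tumor 7, but the members rise and fall together within a type, so these 9 are not separate events and the rate cannot be read as an excess. That tumor was the lowest of its type at a log2 CPM of 0.93 for Trim5, 2.02 for Trim12a, 2.28 for Trim12c, 3.12 for Trim21, -0.12 for Trim30b, -0.43 for Trim30c, 2.77 for Trim30d, 1.74 for Trim34a and 0.93 for Trim34b. It also had the lowest Ptprc level of all B16-GFP tumors, 19.6 CPM, whose part in these values was not tested. B16-IFNA9 tumor 5 was far below the other tumors of its type for Trim30b (3.29) and Trim30c (2.21). In B16-IFNA4 tumors, the log2 ratio of Trim34b to Trim34a was high in tumor 6 (-0.64), and that of the Trim34 sum to the sum of Trim5, Trim12a and Trim12c was high in tumor 2 (-0.80).

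Levels differed between B16-IFNA9 and B16-IFNA4 tumors, tested directly, for Trim30b (-1.08 on the log2 scale) and Trim30c (-0.91). The interferon and the line cannot be told apart in this comparison. The log2 ratios that differed were those of Trim30b to Trim30a (-0.80), Trim30c to Trim30a (-0.62), Trim30d to Trim30a (-0.10), Trim12c to Trim12a (0.13), the Trim30 sum to the Trim5 and Trim12 sum (-0.25) and the Trim34 sum to the Trim5 and Trim12 sum (-0.24).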

How the results depend on the processing

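The count of 10 members called higher than in B16-GFP tumors was the same for both interferons under every alternative that tested them singly, and with paralogs summed every sum or gene tested was called higher. Between B16-IFNA9 and B16-IFNA4 tumors, 2 members were called, 5 with only the 20 tumors compared (where 4332 genes in all were called, in place of 2833, and 3801 without B16-GFP tumor 7), and 0 with paralogs summed, either as planned or with Trim5 in the Trim12 sum, an alternative added after the data were seen (edgeR, with 2 of the 5 and 2 of the 4 sums and genes at an unadjusted p under 0.05). DESeq2 on single genes called 2. Leaving out each tumor in turn gave 2 to 5, the 5 without B16-GFP tumor 7. The replicate numbers of the labels did not pair the tumors, with mean correlations of -0.043, -0.040 and -0.045 between same-numbered tumors of 2 types and an own number correlating best in 1, 1 and 0 of 10, and a fit with the replicate block called 10, 10 and 2 members. The difference of Trim5 between the interferon types ran from -0.095 to 0.0062 over the tumors left out, that of Trim21 from -0.086 to 0.022, and the log2 ratio of the Trim30 sum to the Trim34 sum from -0.039 to 0.027, each with a change of sign; the cause was not tested. The correlations past the threshold numbered 30, and 22 to 30 with each tumor left out, the fewest without B16-GFP tumor 7 and 23 without B16-IFNA9 tumor 5. Low counts limit Trim30c and Trim30b in B16-GFP tumors, down to 7 counts.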
